A study of Homo sapiens with 18 samples.

Results

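The genes described here encode enzymes of sulfation: 6 cytosolic sulfotransferases (SULT1C2, SULT2B1, SULT1A1, SULT1A2, SULT1A3 and SULT1B1), both synthases of the sulfate donor (PAPSS1 and PAPSS2) and both tyrosylprotein sulfotransferases (TPST1 and TPST2). Their probes were taken by gene symbol from the platform annotation, with older names matched through Entrez identifiers. Of the 10 genes, 9 had a probe and 8 entered the tests, among 13712 genes tested, and 16 of their 19 probes passed the detection filter (detection p under 0.05 on at least 3 of the 18 arrays). SULT1A2 had no probe and SULT1B1 did not pass. The set was chosen by gene function after the calcitriol differences of SULT1C2 and TPST1 in these arrays were known, so those differences are given as a description with no p-value.

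The samples were 3 established human lines of colorectal cancer, HCT116, LS174T and SW480, whose RNA was read on single-colour Illumina HT-12 bead arrays. Each line received either 50 nM calcitriol (the active vitamin D hormone) in ethanol or the ethanol vehicle alone, and was harvested after 16 h. The medium for treatments held charcoal-treated serum in both arms, and each of the 6 groups had 3 arrays. Nothing in the labels says that replicates came from separate cultures, so each p-value reflects the spread among these arrays, which may be technical.

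Sulfation moves a sulfate group from the donor PAPS, which the PAPS synthases make from sulfate and ATP, onto an acceptor. In the cytosol the SULT enzymes sulfate phenols, steroids and drugs, which makes them more soluble and often ends their activity, and the intestinal epithelium is a known site of this metabolism. In the Golgi, other sulfotransferases use the same donor after it is carried across the membrane: the TPST enzymes sulfate tyrosines of secreted and membrane proteins, and the carbohydrate sulfotransferases sulfate mucins and proteoglycans.

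Between 19295 and 21028 probes were detected per array, and replicates correlated at 0.991 to 0.993. Of 8 colorectal epithelial markers, 6 were detected on all 18 arrays, with VIL1 on 12 and LGALS4 on 6. Of 6 fibroblast markers, COL3A1 and THY1 were detected on no array, COL1A2 and DCN on 2 each, LUM on 6 and PDGFRB on 7, with a highest level of 9.91 for PDGFRB. Of 5 leukocyte markers with a probe, CD3E was detected on no array, PTPRC on 1, LCP1 on 9, CD14 on 14 and CD68 on 18. Of 5 endothelial markers, PECAM1, CDH5 and TEK were detected on no array, VWF on 3 and KDR on 5. The part of these markers in the results was not tested. CYP24A1, the enzyme that breaks down calcitriol and its best known target, rose in every line, by 1.56 ± 0.10 (SE) in HCT116 (adjusted p = 1.04e-06) and 1.31 ± 0.10 in SW480 (adjusted p = 2.47e-06) on the log2 scale and at least 176-fold in LS174T (adjusted p = 9.11e-18). These rises began at unlike levels: its ethanol mean was 11.18 in HCT116 and 9.17 in SW480, and no LS174T ethanol array detected it. The calcitriol means were 12.74 in HCT116, 12.91 in LS174T and 10.49 in SW480. VDR, the receptor, had a mean ethanol level of 5.50 ± 0.20 (SD, n = 3) in HCT116, 8.29 ± 0.17 in LS174T and 6.99 ± 0.35 in SW480. The HCT116 level was at the detection limit: VDR was detected there on 2 of the 3 ethanol arrays and on no calcitriol array. The lowest detected level of an array was 5.39 to 5.57. All levels below are normalized log2 intensities and all differences are calcitriol minus ethanol on that scale with the SE of the fit unless another contrast is named. A probe under the detection threshold on every array of a group is called not detected there, and levels of different probes are not compared. Within bulk RNA, fewer cells expressing a gene and less of its RNA per cell cannot be told apart.

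Calcitriol differences were largest for SULT1C2 in LS174T and HCT116, for TPST1 in SW480 and for PAPSS2 in SW480. With an adjusted p under 0.05 over all genes as the threshold, 1 of the 8 tested genes passed in HCT116, where 0.0729% of all genes did. In LS174T 4 of 8 passed, 3 higher and 1 lower, beside 6.05% of all genes (2.81% higher and 3.24% lower). In SW480 2 of 8 passed, 1 higher and 1 lower, beside 2.46% of all genes (0.788% higher and 1.68% lower). These counts include SULT1C2 and TPST1, whose values led to the set, so nothing is read from them. The median difference of the 8 genes was 0.14 in HCT116, 0.21 in LS174T and -0.08 in SW480, against 0.00, -0.02 and -0.01 over all genes. These medians also include SULT1C2 and TPST1, so no shift of the set is read from them.

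**Figure D1:**
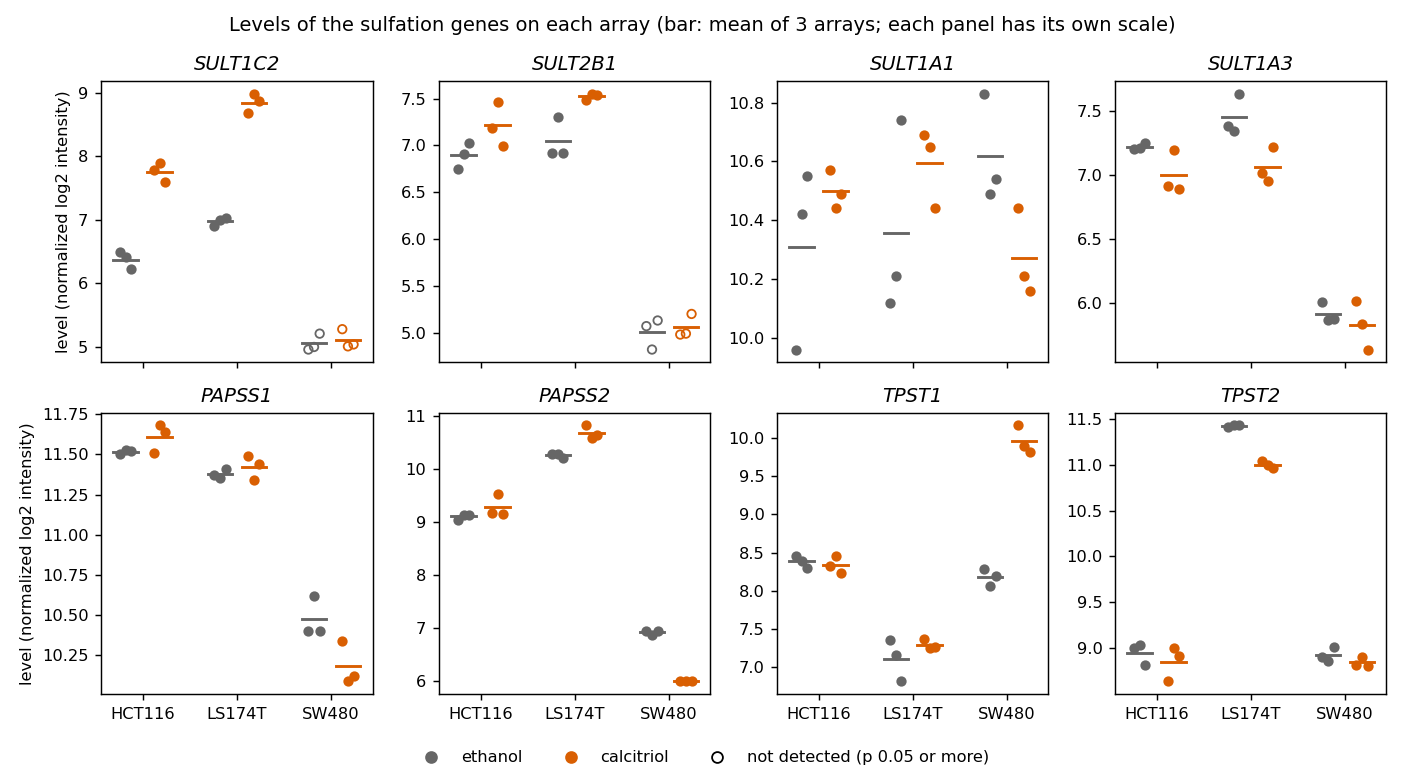
Normalized log2 intensity (vertical axis, each panel on its own scale) of the representing probe of the 8 tested sulfation genes on every array, by cell line and treatment, with the mean of 3 arrays as a bar and open circles for arrays on which the probe was not detected. SULT1C2 and SULT2B1 are open in all 6 SW480 arrays, TPST1 separates ethanol from calcitriol in SW480, and PAPSS2 lies highest in LS174T and lowest in SW480.

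SULT1C2, a cytosolic sulfotransferase of phenolic compounds, was higher after calcitriol in both lines in which it was detected. In HCT116 its level was 6.49, 6.41 and 6.22 in ethanol and 7.79, 7.89 and 7.59 in calcitriol. In LS174T it was 6.90, 6.99 and 7.03 in ethanol and 8.68, 8.98 and 8.86 in calcitriol. All treated arrays lay above all vehicle arrays in both lines. The difference was 1.38 ± 0.11 in HCT116, or 2.61-fold, and 1.87 ± 0.11 in LS174T, or 3.65-fold. Its size depended on the processing: over the alternatives run it ranged from 0.725 to 1.47 in HCT116 and from 1.23 to 1.99 in LS174T. In SW480 the probe was not detected on any of the 6 arrays, which read 4.96, 5.00 and 5.21 in ethanol and 5.28, 5.01 and 5.04 in calcitriol.

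The second SULT1C2 probe gave the same picture with more spread. It read 5.40, 6.39 and 6.40 in HCT116 ethanol and 7.72, 7.51 and 7.30 in calcitriol, a difference of 1.45 ± 0.23. One of these ethanol arrays, the lowest, was below detection. In LS174T it read 5.63, 5.80 and 6.19 in ethanol and 7.77, 7.21 and 7.64 in calcitriol, a difference of 1.67 ± 0.23, and it too was not detected in SW480.

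SULT2B1, which sulfates cholesterol and other hydroxysteroids, was not detected in SW480 by its brightest probe and showed a smaller difference elsewhere. Its brightest probe read 6.92, 7.30 and 6.92 in LS174T ethanol and 7.48, 7.55 and 7.54 in calcitriol. The treated arrays lay close together above the vehicle arrays, by 0.48 ± 0.13 (adjusted p = 0.0424). This call is a marginal one: without LS174T ethanol replicate 1 the difference was 0.42 with an adjusted p of 0.162, and the call was also lost without LS174T ethanol replicate 3, without each of the 3 LS174T calcitriol arrays in turn, and without each of 5 arrays of the other lines in turn. In HCT116 the ethanol arrays read 6.75, 6.91 and 7.03 and the calcitriol arrays 7.19, 7.46 and 6.99, with overlap and a difference of 0.32 ± 0.13 (adjusted p = 0.398).

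The other SULT2B1 probes disagreed with each other. Probe 3 was not detected in LS174T ethanol, at 5.39, 5.41 and 5.25, and was detected on every LS174T calcitriol array, at 6.32, 6.11 and 6.17. This is at least 1.68-fold higher (0.85 ± 0.10). The probe passed the detection filter only through these calcitriol arrays. The difference therefore follows in part from the filter and is given without a p-value. Probe 2, dim in all lines, differed by -0.02 ± 0.19 in LS174T. Unlike the brightest probe, it was detected in SW480, on all 3 ethanol arrays (mean 5.77) and on 2 of the 3 calcitriol arrays. Which transcripts of the gene each probe reads was not tested.

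SULT1C2 and TPST1 had the largest calcitriol differences of the set, and SULT2B1 shared with SULT1C2 the lack of detection in SW480 by its brightest probe. The 250 bases before their RefSeq start sites (GRCh38.p14, plus strand for all 3) are shown, 5′ to 3′. They are chr2:108288645-108288894 for SULT1C2, chr19:48551922-48552171 for SULT2B1 and chr7:66205084-66205333 for TPST1. The first 2 windows end at the start of the gene. The TPST1 window lies before a start site inside the gene, whose outermost base is 66198790. The bases before that outermost start were not examined. Capitals mark every match, on either strand, to the 6-letter motif AGGTCA or to its variants, of which AGTTCA is one, GGGTCA is another and GGTTCA is the last. These are spellings of the element that the vitamin D receptor and related nuclear receptors recognise.
SULT1C2: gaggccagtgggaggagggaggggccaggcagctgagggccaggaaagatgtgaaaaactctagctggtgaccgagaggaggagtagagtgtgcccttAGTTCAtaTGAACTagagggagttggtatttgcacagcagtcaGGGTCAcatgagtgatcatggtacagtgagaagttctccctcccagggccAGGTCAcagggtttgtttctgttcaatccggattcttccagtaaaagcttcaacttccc
SULT2B1: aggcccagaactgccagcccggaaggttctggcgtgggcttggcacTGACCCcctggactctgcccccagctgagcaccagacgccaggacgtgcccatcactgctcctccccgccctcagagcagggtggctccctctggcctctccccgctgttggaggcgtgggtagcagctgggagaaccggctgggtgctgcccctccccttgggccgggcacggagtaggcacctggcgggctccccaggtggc
TPST1: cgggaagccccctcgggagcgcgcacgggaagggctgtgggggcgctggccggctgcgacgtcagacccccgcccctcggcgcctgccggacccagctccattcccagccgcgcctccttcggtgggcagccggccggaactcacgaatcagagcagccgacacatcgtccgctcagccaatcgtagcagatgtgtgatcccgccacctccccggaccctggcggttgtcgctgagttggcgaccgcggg
The SULT1C2 window held 4 matches, the first 2 of which lie on opposite strands 2 bases apart, and the SULT2B1 window held 1. Of 35116 RefSeq promoter windows of the same length, 33.8% held at least 1 match and 0.259% held 4 or more. The cut of 4 is the SULT1C2 count itself, and SULT1C2 was chosen for its calcitriol difference. The share at that cut is therefore a description, and no enrichment is read from it. The TPST1 window held none, and its GC content was 72%, against 70.8% for SULT2B1, 52.4% for SULT1C2 and a median of 58% over all windows. A match describes letters and is not a bound site, and no match says only that these letters are not in that window. The paired arrangement of such motifs known as DR3 was in none of the promoters of the 7 genes found in the table and in 0.0655% of all windows. PAPSS2, SULT1A1 and SULT1A2 had no promoter window to read.

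The SULT1A genes, which sulfate small phenols (SULT1A1) and catecholamines such as dopamine (SULT1A3), did not pass the threshold in any line with the settings used throughout. They are close copies of one another, and SULT1A3 has a near-identical copy, SULT1A4, so their probe signals cannot be assigned to 1 gene with certainty. SULT1A1 was bright in all lines, at 9.96, 10.42 and 10.55 in HCT116 ethanol, 10.12, 10.21 and 10.74 in LS174T ethanol and 10.83, 10.49 and 10.54 in SW480 ethanol. Its calcitriol differences were 0.19 ± 0.17 in HCT116 (adjusted p = 0.762), 0.23 ± 0.17 in LS174T (adjusted p = 0.511) and -0.35 ± 0.17 in SW480 (adjusted p = 0.313). In SW480 all 3 calcitriol arrays, at 10.44, 10.21 and 10.16, lay below the ethanol arrays. The second SULT1A1 probe differed by 0.16, -0.25 and -0.06 in the same order, so the direction in LS174T depends on the probe.

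SULT1A3 read 7.38, 7.34 and 7.63 in LS174T ethanol and 7.01, 6.95 and 7.22 in calcitriol. The groups did not overlap, and the difference of -0.39 ± 0.11 just missed the threshold (adjusted p = 0.0536). SULT1A3 did pass there with a background-correction offset of 50 (-0.32, adjusted p = 0.0340). It also passed with detection required on at least 9 arrays (adjusted p = 0.0469) or at a detection p under 0.01 (adjusted p = 0.0428). Of 18 fits leaving out 1 array, 4 passed. Its other probe gave -0.46 ± 0.16 in LS174T, with arrays again apart. In HCT116 and SW480 the brightest probe differed by -0.22 ± 0.11 (adjusted p = 0.506) and -0.09 ± 0.11 (adjusted p = 0.768). SULT1B1, a sulfotransferase of thyroid hormones and phenols in the gut, was detected on only 2 of 18 arrays, both LS174T in ethanol. It read 5.30, 5.70 and 5.58 there and 5.06, 5.07 and 4.72 in LS174T calcitriol. No fold is given, since the probe was not detected on any of those calcitriol arrays and on 1 of the ethanol arrays.

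PAPSS2, the PAPS synthase known for its role in cartilage and in androgen sulfation, changed in opposite directions in LS174T and SW480. In SW480 it read 6.95, 6.86 and 6.94 in ethanol, and in calcitriol 6.01 on the highest array and 6.0 on the other arrays. The arrays of each group lay close together and apart from the other group, and PAPSS2 fell by 0.91 ± 0.09, or 1.88-fold (adjusted p = 8.90e-05). In LS174T it read 10.29, 10.29 and 10.20 in ethanol and 10.82, 10.58 and 10.64 in calcitriol. It rose there by 0.42 ± 0.09, or 1.34-fold (adjusted p = 0.0112). The LS174T call was lost when that line was fitted alone (adjusted p = 0.0652) and without its calcitriol replicate 1 (0.35, adjusted p = 0.0649).

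In HCT116 PAPSS2 read 9.04, 9.14 and 9.13 in ethanol and 9.17, 9.52 and 9.15 in calcitriol. The arrays did not overlap, but the difference of 0.17 ± 0.09 did not pass (adjusted p = 0.540). The responses themselves were compared by a moderated F-test, which 3 of the 8 genes passed beside 5.55% of all genes, and 2 of those 3 were SULT1C2 and TPST1. For PAPSS2 the F-test had an adjusted p of 3.02e-05. The SW480 response was lower than that of LS174T by 1.34 log2 units (adjusted p = 1.86e-05) and lower than that of HCT116 by 1.09 log2 units (adjusted p = 0.00110). The LS174T and HCT116 responses differed by 0.25, with a 95% interval from -0.03 to 0.53 (adjusted p = 0.384).

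PAPSS1, the more widely expressed PAPS synthase, did not pass in any line with the settings used throughout. Its differences were 0.10 ± 0.09 in HCT116 (adjusted p = 0.761), 0.05 ± 0.09 in LS174T (adjusted p = 0.853) and -0.29 ± 0.09 in SW480 (adjusted p = 0.0875). In SW480 it read 10.40, 10.62 and 10.40 in ethanol and 10.34, 10.09 and 10.12 in calcitriol, without overlap. Its second probe gave -0.24 ± 0.12 in SW480, also without overlap. The brightest probe did pass in SW480 without background correction (-0.27, adjusted p = 0.0431) and with a trended, robust variance (adjusted p = 0.0324).

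TPST1, a Golgi enzyme that sulfates protein tyrosines, was higher after calcitriol in SW480. There it read 8.29, 8.06 and 8.19 in ethanol and 10.16, 9.89 and 9.81 in calcitriol. The lowest treated array stood far above the highest vehicle array, and the difference was 1.77 ± 0.12, or 3.42-fold. Over the alternatives run it ranged from 1.43 to 1.84. In HCT116 it read 8.46, 8.39 and 8.30 in ethanol and 8.32, 8.45 and 8.23 in calcitriol, a difference of -0.05 ± 0.12. In LS174T it read 7.36, 7.16 and 6.82 in ethanol and 7.37, 7.25 and 7.26 in calcitriol, a difference of 0.18 ± 0.12. Treated and vehicle arrays overlapped in both of these lines. The gene has a single probe, so no other probe checks this reading.

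TPST2, which carries out the same reaction, moved the other way and in another line. In LS174T it read 11.41, 11.43 and 11.43 in ethanol and 11.04, 11.00 and 10.96 in calcitriol. It fell by 0.42 ± 0.09, or 1.34-fold (adjusted p = 0.00920), and the second probe fell by 0.62 ± 0.10 (adjusted p = 0.00149 over all probes), from 10.93, 11.08 and 11.08 to 10.51, 10.26 and 10.44. The call was lost when arrays were scaled to a common median instead of quantile-normalized (-0.33, adjusted p = 0.157). In HCT116 and SW480 TPST2 differed by -0.10 ± 0.09 (adjusted p = 0.773) and -0.08 ± 0.09 (adjusted p = 0.735). With the brightest TPST2 probe the F-test of differing responses did not pass (adjusted p = 0.166). With the second probe the response of LS174T minus HCT116 was -0.61 (limma, adjusted p = 0.0463 over all probes, 0.0258 over genes). That of SW480 minus LS174T was 0.54 (adjusted p = 0.0728 over all probes, 0.0443 over genes). The brightest probe gave -0.32 and 0.35, neither of which passed, so a difference in response depends on the probe.

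**Figure D2:**
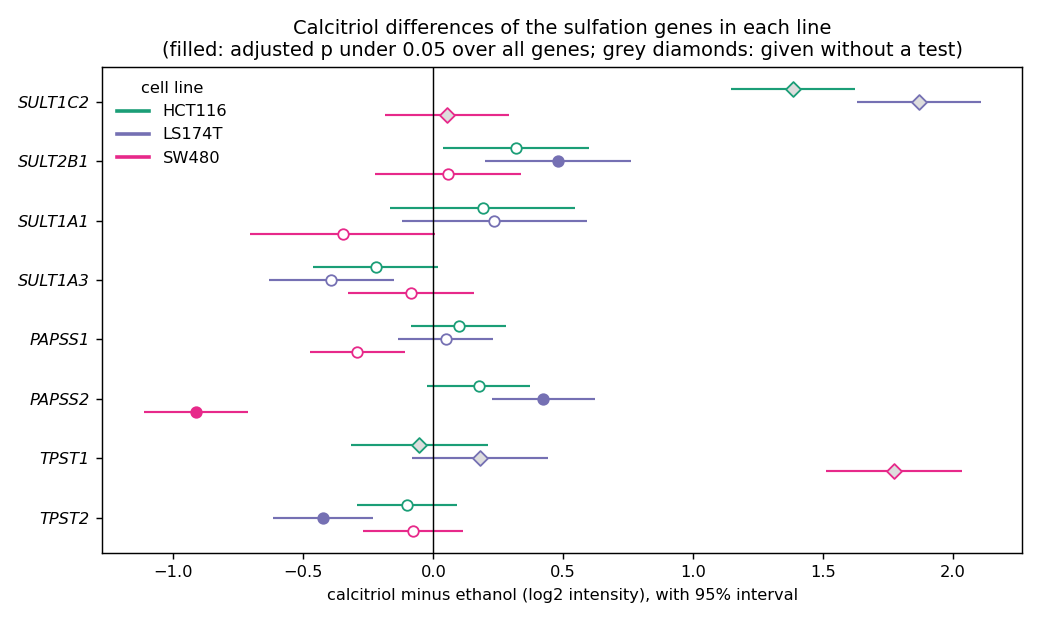
Calcitriol minus ethanol difference in log2 intensity (horizontal axis) of each tested sulfation gene in HCT116, LS174T and SW480, with the 95% interval as a bar, filled points where the adjusted p over all genes was under 0.05, and grey diamonds for SULT1C2 and TPST1, which are given without a test. SULT1C2 lies near 1.38 and 1.87 in HCT116 and LS174T and TPST1 near 1.77 in SW480, and PAPSS2 lies on opposite sides of 0 in LS174T and SW480.

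**Figure D3:**
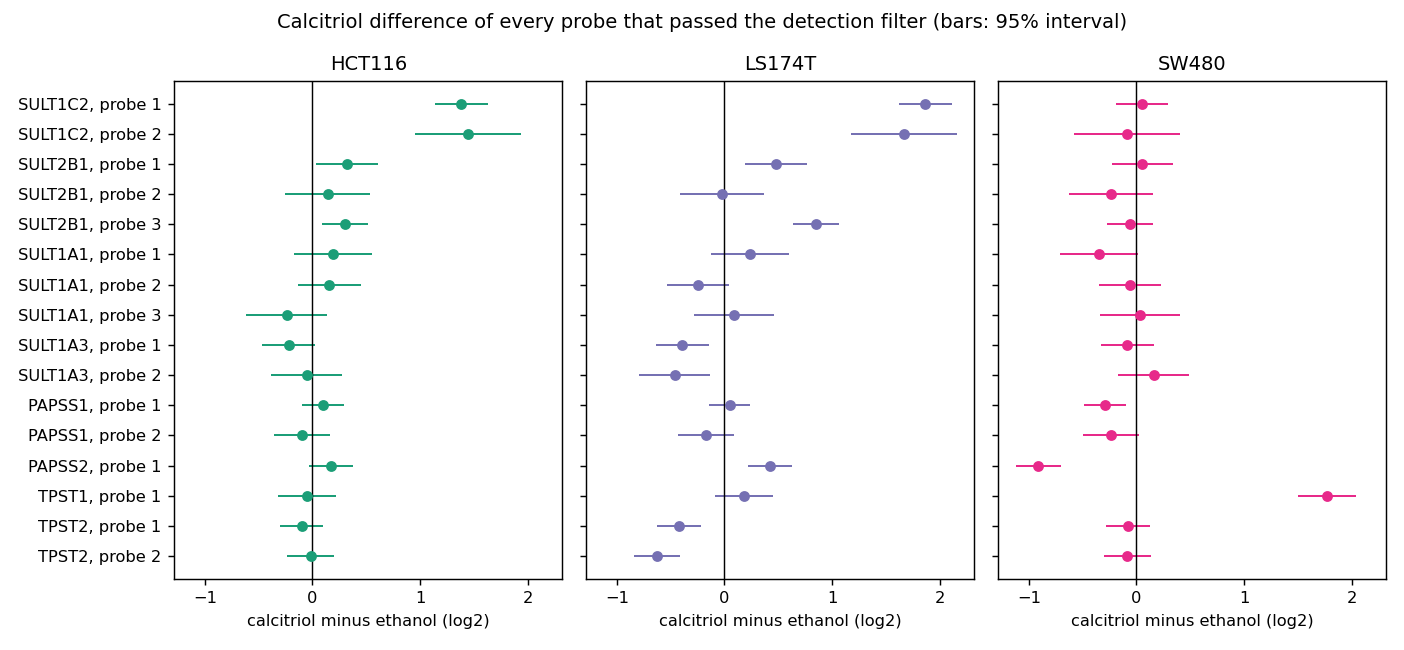
Calcitriol minus ethanol difference in log2 intensity of each of the 16 probes that passed the detection filter, 1 panel per line, with 95% intervals as bars and probes of a gene numbered from the brightest. Both SULT1C2 probes lie above 1 in HCT116 and LS174T, both TPST2 probes lie below 0 in LS174T, and the 3 SULT2B1 probes are spread from -0.02 to 0.85 in LS174T.

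The lines also differed in these genes before treatment, as most genes did: the moderated F-test over the ethanol groups passed for 7 of the 8 genes and for 79.7% of all genes. The ethanol arrays here are the same ones that serve as controls for the calcitriol differences. By their brightest probes, PAPSS1, PAPSS2, SULT1C2, SULT2B1 and SULT1A3 were lower in SW480 than in either other line. The brightest probes of SULT1C2 and SULT2B1 passed the detection filter only through HCT116 and LS174T. Their differences from SW480 therefore follow in part from the filter and are given without a p-value. SW480 differed from LS174T in 7 of 8 genes (63.8% of all genes), SW480 from HCT116 in 5 (64.4%) and LS174T from HCT116 in 4 (60.4%). The counts against SW480 and that of the F-test include SULT1C2 and SULT2B1, so nothing is read from them.

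PAPSS2 had the widest range, from 10.26 ± 0.05 (SD, n = 3) in LS174T through 9.11 ± 0.06 in HCT116 to 6.92 ± 0.05 in SW480. LS174T exceeded HCT116 by 1.15 ± 0.09 (adjusted p = 1.64e-08), and SW480 was 4.55-fold below HCT116 (adjusted p = 3.82e-12) and 10.1-fold below LS174T (adjusted p = 1.01e-14). PAPSS1 was also lower in SW480, by 1.04 ± 0.09 on the log2 scale against HCT116 (adjusted p = 1.61e-08) and by 0.90 ± 0.09 against LS174T (adjusted p = 9.05e-08), while HCT116 and LS174T were not separated by the test (adjusted p = 0.183). As a description, SULT1C2 in ethanol was lower in SW480 than in HCT116 by at least 1.94-fold and than in LS174T by at least 2.94-fold. SULT2B1 was lower in SW480 by at least 2.78-fold against HCT116 and at least 3.09-fold against LS174T. Its dim second probe did not follow, reading 0.34 above HCT116 and 0.16 above LS174T in SW480.

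SULT1C2 in LS174T exceeded HCT116 by 0.60 ± 0.11 in ethanol (adjusted p = 1.98e-04), but its second probe read -0.19, so the order of these lines depends on the probe. SULT1A3 was lower in SW480 than in HCT116 by 1.30 ± 0.11 on the log2 scale (adjusted p = 3.38e-08) and than in LS174T by 1.53 ± 0.11 (adjusted p = 3.91e-09). SULT1A1 was the gene whose brightest probe did not differ among the lines past the threshold (F-test adjusted p = 0.198), although its second probe read 0.96 lower in SW480 than in HCT116. With arrays scaled to a common median, the brightest probe read 0.70 higher in SW480 than in HCT116 (limma, adjusted p = 0.00138). Probe 3 of SULT1A1 was detected in ethanol in LS174T, at 6.50, 6.71 and 7.11, and in neither other line. It passed the detection filter only through LS174T, so this difference follows in part from the filter.

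The tyrosine sulfotransferases were ordered in opposite ways between LS174T and the other lines. The level of TPST2 in LS174T exceeded that in HCT116 by 2.47 ± 0.09, or 5.55-fold (adjusted p = 4.55e-13), and SW480 was 5.65-fold below LS174T (adjusted p = 3.11e-13). TPST1 was lower in LS174T than in HCT116 by 1.27 ± 0.12 (adjusted p = 1.56e-07), and SW480 exceeded LS174T by 1.07 ± 0.12 (adjusted p = 9.71e-07). HCT116 and SW480 were not separated for either gene, with a difference of SW480 minus HCT116 of -0.20 ± 0.12 for TPST1 (adjusted p = 0.169) and -0.03 ± 0.09 for TPST2 (adjusted p = 0.814).

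Other genes of sulfate metabolism were followed as 4 lists chosen with earlier results of these data known. Of 7 other cytosolic sulfotransferases, SULT6B1 was the 1 that entered the tests, and it did not pass in any line by limma, adjusted or unadjusted (0 of 1 at an unadjusted p under 0.05). In the list of sulfate and PAPS supply, 7 of 12 genes were tested. BPNT1, a phosphatase that removes the by-product PAP left after sulfation, rose in LS174T by 0.77 ± 0.16 (adjusted p = 0.00685), and no other gene of the list passed in that line. Over all genes 2.81% passed higher and 3.24% lower there, and a count of 1 gene says nothing particular about the list. None of these 7 passed in HCT116 or SW480 in the limma test, where 0 and 1 had an unadjusted p under 0.05. In ethanol, 6 of the 7 were lower and 1 was higher in SW480 than in LS174T, beside 32% of all genes lower and 31.9% higher. The 6 include SLC26A1, which passed the detection filter only through LS174T, so its difference follows in part from the filter. Among the 6 lower were SLC35B2 (-0.83 ± 0.08, adjusted p = 1.22e-07) and SLC35B3 (-0.89 ± 0.11, adjusted p = 1.56e-06), which carry PAPS into the Golgi, and the higher one was the sulfate transporter SLC26A2 (1.17 ± 0.21, adjusted p = 9.14e-05).

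Of 35 Golgi carbohydrate sulfotransferases, 21 were tested. In LS174T CHST13 and UST, which sulfate chondroitin and dermatan chains, fell by 0.87 ± 0.12 (adjusted p = 2.04e-04) and 0.54 ± 0.14 (adjusted p = 0.0363), beside 3.24% of all genes lower, and none passed higher, beside 2.81%. In SW480 CHST15, which adds a sulfate to chondroitin already sulfated, fell by 0.45 ± 0.10 (adjusted p = 0.0247), beside 1.68% of all genes lower, and none passed higher, beside 0.788%. At these shares the counts say nothing particular about the list. In HCT116 none passed in the limma test, where 1 had an unadjusted p under 0.05. Of 19 sulfatases and their activators, which remove sulfate, 11 were tested and none passed in any line by limma, with 1, 0 and 1 at an unadjusted p under 0.05 in HCT116, LS174T and SW480.

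**Figure D4:**
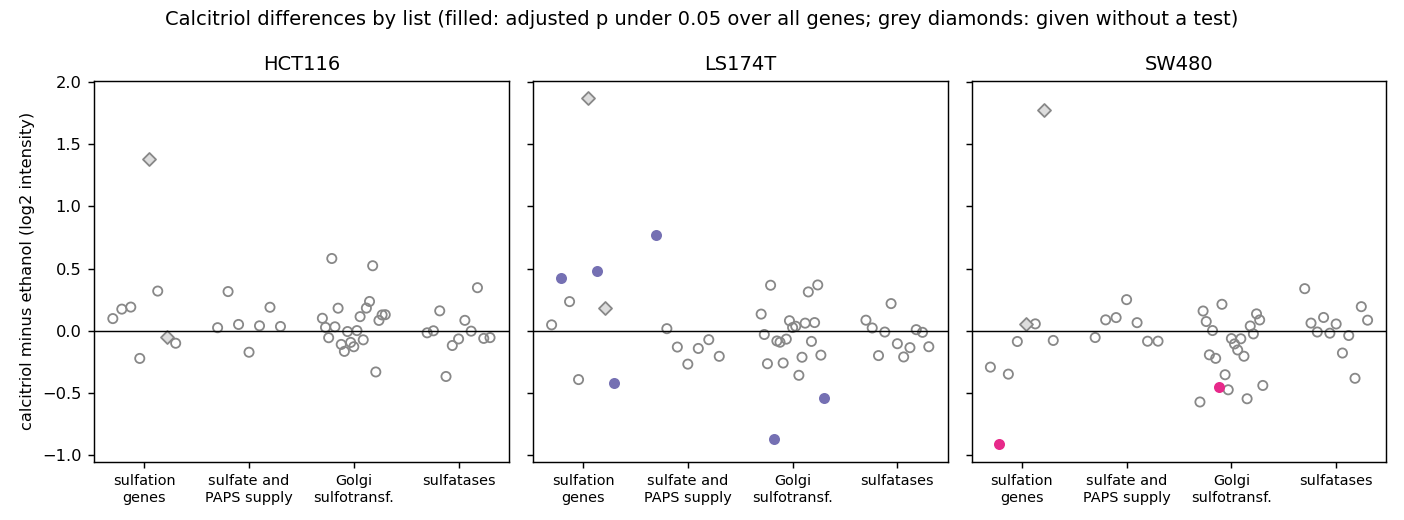
Calcitriol minus ethanol difference in log2 intensity (vertical axis) of each tested gene, by list, in the 3 lines, with filled points where the adjusted p over all genes was under 0.05 and grey diamonds for SULT1C2 and TPST1, given without a test. Beside the sulfation genes, 1 gene of the supply list and 2 Golgi sulfotransferases are filled in LS174T, 1 Golgi sulfotransferase is filled in SW480, and no sulfatase is filled.

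The genes whose level followed SULT1C2 most closely over the 18 arrays, among 6670 genes whose group means span at least 1 log2 unit, were UCA1 (Pearson's r = 0.971), CYP4F3 (0.961), BTBD3 (0.953), ANKRD22 (0.950) and SERPINB1 (0.948). Those closest to TPST1 were COL1A1 (0.935), ZFAND2A (0.904), SLC25A37 (0.894), LHX6 (0.882) and H2AC25 (0.879). UCA1, a long noncoding RNA, had mean levels of 9.66 in LS174T ethanol and 11.07 in calcitriol and of 7.89 and 8.10 in SW480. COL1A1, a collagen chain, had means of 6.65 in SW480 ethanol and 7.64 in calcitriol and was detected on 1 of 6 LS174T arrays. The correlations describe these arrays, which share lines and treatments, and carry no p-value.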

How the data were processed

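RNA of 3 colorectal cancer cell lines was measured on 18 single-colour Illumina HT-12 arrays, 3 per line and treatment. Per the file headers, the deposited raw table gives, for each probe and array, a linear intensity before normalization and a detection p-value. Of its lines, 47323 name a probe and were used, and 887 that name none were not. The authors also deposited log2 values of the same arrays, which served as an alternative. The submitters' processing notes name limma without a version, and how bead signals were summarised was not given in the sources used. The values computed here differed from the deposited log2 values by a median of 0.000195 and by at most 0.00137 for the probes of the sulfation genes.

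Intensities were background-corrected from the detection p-values and quantile-normalized with neqc of limma 3.58.1 in R 4.3.3 (offset 16, which shrinks differences of dim probes). Probes with a detection p under 0.05 on at least 3 arrays were kept, and each gene was represented by its brightest probe over all arrays. Symbols came from the platform annotation, updated through Entrez identifiers to RefSeq GRCh38.p14. Group means were fitted over all 18 arrays with lmFit and eBayes, which were first tested on simulated data, with Benjamini-Hochberg adjustment over 13712 genes (threshold 0.05). A fold against a group without detection is a lower bound, taken on each array against the lowest detected value or the probe's own, whichever was higher.

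All 10 sulfation genes are named. From each list of related genes those past the threshold are named, and for SULT1C2 and TPST1 the 5 genes of highest correlation. The genes, lists and rules were chosen with earlier results of these data known, so their counts are not independent evidence. Background, scaling, filter, probe choice, variance model and single arrays were varied as alternatives. With 3 arrays per group, the number of arrays limits the precision.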

Additional observations from a re-analysis of the deposited data

Results flagged for a closer look

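The calcitriol response of PAPSS2 differed between lines by a test of the difference itself in the limma fit over all genes. The SW480 response minus the HCT116 response was -1.09 on the log2 scale (adjusted p = 0.00110), and the SW480 response minus the LS174T response was -1.34 (adjusted p = 1.86e-05). All 3 treated SW480 arrays lay below the vehicle arrays, and all 3 treated LS174T arrays lay above theirs. The gene has 1 probe. The cause of the difference was not tested. Groups of 3 arrays were too small for a search for outlying samples.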

How the results depend on the processing

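The call for PAPSS2 in SW480 held under every alternative run for it, but its size did not. The difference ranged from -1.06 to -0.39 over these alternatives, beside -0.91 in the main fit. The PAPSS2 response of SW480 ranged from -1.35 to -0.53 against HCT116 and from -1.58 to -0.78 against LS174T. In LS174T the number of sulfation genes called went from 4 to 2 when the line was fitted alone, and over the fits leaving out 1 array it ranged from 2 to 5, with 2 without LS174T calcitriol replicate 1. With the replicate number as a block it was also 2, with SULT2B1 at an adjusted p of 0.0778 and TPST2 at 0.0563. Same-numbered arrays did not deviate together (r from -0.09 to 0.001 over 9 pairs). These values were taken after normalization, from means of 3 arrays, so they cannot exclude that the numbers pair the samples. Without background correction 5 genes in place of 3 had differing responses. Several differences changed sign, none of them called in the report unless named. Scaling to the median gave -0.10 for the SULT1A3 response of SW480 minus HCT116, 0.030 for PAPSS1 in ethanol of LS174T minus HCT116, 0.078 for TPST1 in HCT116, 0.13 for TPST1 in ethanol of SW480 minus HCT116, 0.024 for TPST2 in HCT116, 0.34 for TPST2 in ethanol of SW480 minus HCT116, and -0.24 for its response in the same pair. The second-brightest probe, an alternative chosen after seeing the data, gave for SULT1C2 -0.086 in SW480 and -0.19 in ethanol of LS174T minus HCT116, the latter a called difference. For SULT2B1 it gave -0.023 in LS174T, -0.24 in SW480, 0.34 and 0.16 in ethanol of SW480 minus HCT116 and minus LS174T, and -0.16 for the response of LS174T minus HCT116, of which the LS174T and both ethanol differences were called with the brightest probe. For SULT1A1 it gave -0.25 in LS174T, -0.96 and -1.38 in ethanol of SW480 minus HCT116 and minus LS174T, and -0.41 and 0.19 for the responses of LS174T minus HCT116 and SW480 minus LS174T. It gave 0.16 for SULT1A3 in SW480, -0.10 and -0.17 for PAPSS1 in HCT116 and LS174T, and for TPST2 0.21 in ethanol and -0.066 in response of SW480 minus HCT116. Leaving out 1 array turned 8 uncalled differences, whose ranges were -0.031 to 0.13 for SULT1C2 and -0.038 to 0.12 for SULT2B1 in SW480, -0.18 to 0.0092 for SULT1A3 in SW480, -0.17 to 0.0063 for TPST2 in HCT116, and, for LS174T minus HCT116, -0.14 to 0.17 for SULT1A1 in ethanol and -0.077 to 0.24 in response. For SW480 minus HCT116, TPST2 ranged from -0.092 to 0.012 in ethanol and from -0.084 to 0.10 in response. The cause of these changes was not tested. Over all genes the calls in HCT116 went from 10 to 23 without background correction, 24 with a trended robust variance, 3 in the line alone and 2 with the block. In LS174T they went from 829 to 504, 453 and 525 with median scaling, the line alone and the block, and in SW480 from 338 to 516 without background correction, 17 in the line alone and 72 with the block. Those of differing responses went from 761 to 1261 without background correction and 226 with the block. Median scaling moved the share of calls that were higher from 70% to 100% in HCT116, from 46.4% to 65.1% in LS174T and from 32% to 6.56% in SW480. Leaving out 1 array gave 3 to 13, 553 to 858 and 118 to 335 calls in the 3 lines. The BeadChip as a random block was not run because the file headers name no BeadChip. Signals near background limit SULT1C2 and the brightest probe of SULT2B1 in SW480 to bounds.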
